A study of Homo sapiens with 2 samples.

Results

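Interferon regulatory factors (IRFs) are transcription factors that share a DNA-binding domain, and PRDM1 binding was examined at 7 of their genes, IRF1, IRF2, IRF3, IRF5, IRF7, IRF8 and IRF9. The plasma cell factor IRF4 was left out by definition. Peaks were assigned to a gene when their summit lay in the gene body or within 25 kb of it, so all 7 genes were kept whether or not a peak was found. Of the 9669 peaks in the complete list, 4 met this rule, and they lay at 3 of the 7 genes. The data came from U266, an established human multiple myeloma line, and comprised 1 library immunoprecipitated with the rabbit monoclonal PRDM1 antibody C14A4 and 1 input library with no antibody. The labels of both libraries describe the cells as a plasma cell lymphoma and name no treatment. Both labels give U266 as the cell line, but their growth protocol also mentions another myeloma line, NCI-H929. Neither library had a replicate, so the values below carry counting error at most and no test between conditions was possible.

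PRDM1 (BLIMP-1) is a repressor with zinc fingers, and it directs B cells to become plasma cells that secrete antibody. Its DNA motif carries a GAAAG core and resembles the elements that IRFs bind, so that PRDM1 and IRF proteins are known to share and contest sites in interferon-responsive promoters. IRF genes act at several steps of the interferon system. IRF3 and IRF7 switch on type I interferon genes after nucleic acid sensing, IRF5 acts below Toll-like receptors, IRF9 carries the type I interferon signal to DNA, IRF1 and IRF2 act on interferon-responsive promoters, and IRF8 shapes myeloid and B cell development.

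The sequences below are promoter windows of IRF5, PSME2 and PSME1, each chosen with a motif match in it. No genome of the build of the peaks was used here, so the bases under the peaks are not shown. The windows run from 250 bases before to 50 bases after a transcription start and come from RefSeq on GRCh38.p14, a later build than that of the peaks. Peak positions were not converted, and whether a summit falls within one of these windows was not determined. IRF5 was the only gene with a peak in its body and had 4 annotated starts. The windows of the third and the fourth are shown, and those of the other starts, which hold no match, are not. PSME2 and PSME1 are neighbours of IRF9 on the side where its peaks lay, and their windows hold a match. RNF31 and EMC9 lie on that side too but are not shown. The first RNF31 window shares its match with that of PSME2, and the second and that of EMC9 hold none. The window of DRD4, a neighbour of IRF7, holds none and is not shown either. Capitals mark matches to GAAAGTG, a PRDM1 core, in the first sequence and to GAAANNGAA, the repeat of interferon response elements, in the other sequences. A match in the orientation of the other strand reads as the reverse complement.

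IRF5, the third start, chr7:128940420-128940719, plus strand: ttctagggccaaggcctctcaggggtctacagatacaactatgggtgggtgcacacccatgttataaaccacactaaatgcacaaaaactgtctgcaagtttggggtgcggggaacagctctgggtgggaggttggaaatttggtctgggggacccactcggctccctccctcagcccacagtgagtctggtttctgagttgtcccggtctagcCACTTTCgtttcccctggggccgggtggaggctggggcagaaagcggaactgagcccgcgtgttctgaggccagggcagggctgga
IRF5, the fourth start, chr7:128941018-128941317, plus strand: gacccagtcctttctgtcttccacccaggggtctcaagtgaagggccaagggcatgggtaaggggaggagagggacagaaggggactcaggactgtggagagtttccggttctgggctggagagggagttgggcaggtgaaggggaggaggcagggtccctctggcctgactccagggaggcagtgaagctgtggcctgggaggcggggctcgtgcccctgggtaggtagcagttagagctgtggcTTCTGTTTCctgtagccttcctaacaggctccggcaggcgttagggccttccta
PSME2, chr14:24146561-24146860, minus strand: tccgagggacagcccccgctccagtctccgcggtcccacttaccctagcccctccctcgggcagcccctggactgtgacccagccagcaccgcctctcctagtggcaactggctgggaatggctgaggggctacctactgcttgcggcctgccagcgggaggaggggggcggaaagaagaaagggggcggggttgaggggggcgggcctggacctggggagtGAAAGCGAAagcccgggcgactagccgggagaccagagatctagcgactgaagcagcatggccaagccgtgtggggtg
PSME1, chr14:24135944-24136243, plus strand: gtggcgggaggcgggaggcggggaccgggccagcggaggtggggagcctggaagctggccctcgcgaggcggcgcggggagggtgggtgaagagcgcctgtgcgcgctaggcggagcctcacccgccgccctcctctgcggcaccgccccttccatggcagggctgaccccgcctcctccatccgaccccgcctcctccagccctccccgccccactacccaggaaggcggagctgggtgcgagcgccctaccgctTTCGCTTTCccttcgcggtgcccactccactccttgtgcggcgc

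The 4 peaks at IRF genes were of intermediate strength. They held 18 to 35 PRDM1 tags, against a median of 15 in the complete list. All 4 passed a false discovery rate (FDR) of at most 5%, with values of 0.1% to 0.55%, where 43.5% of the complete list passed it. This FDR is the authors' own, from peaks called with PRDM1 and input swapped. None of the 4 reached 50 tags, the further limit of the authors' filtered list, which 9.17% of the complete list passed together with the FDR limit. IRF peaks are therefore absent from the 887 filtered regions. With 4 peaks, neither share can be set apart from that of the list.

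**Figure D1:**
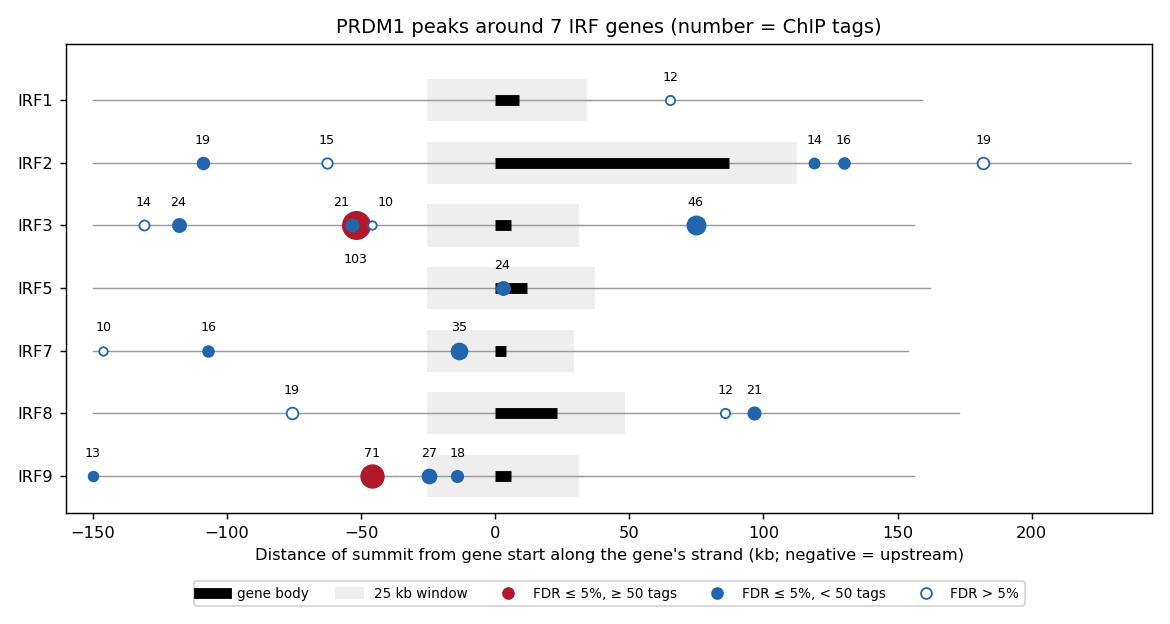
Peaks of the complete list within 150 kb of 7 IRF gene bodies, by distance of the summit from the gene start in kb along the gene's strand. The black bar is the gene body, the grey box the 25 kb window, circle area and number give PRDM1 tags, and colour gives the limits passed. Within the windows there are 4 peaks, at IRF5, IRF7 and IRF9, each under 50 tags.

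The summed windows of the 7 genes covered 0.497 Mb and held 8.05 peaks per Mb (exact 95% Poisson interval 2.19 to 20.6). The complete list had a mean of 3.58 peaks per Mb of effective genome, at which 1.78 peaks would lie in these windows. The interval of these 25 kb windows includes that mean. With windows of 50 kb the density was 9.45 per Mb (4.08 to 18.6), from 8 peaks where 3.03 would lie at the mean. With windows of 100 kb, a size added after seeing the data, it was 11.0 per Mb (6.4 to 17.6), from 17 peaks where 5.54 would lie. The intervals of both wider windows lie above the mean. They treat peaks as independent, yet 16.1% of the complete list had another summit within 10.5 kb, so they are too narrow where peaks cluster. Peaks were not counted around other genes, because no annotation of the build of the peaks was used here. Whether IRF genes differ from other genes was therefore not tested.

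IRF5, which drives inflammatory cytokine genes below Toll-like receptors and is a risk gene for lupus, was the only member with a peak inside its body (chromosome 7, 128578 to 128590 kb, GRCh37). The peak ran from 128580480 to 128581167, a width of 688 bp, with its summit about 2.75 kb past the start of the gene. It held 24 PRDM1 tags, which the scaling to input depth turned into 26, where the input predicted 4.13. The ratio of scaled to expected tags, used for every peak below, was 6.3 (exact 95% Poisson interval on the tags 4.06 to 9.42), and the list median of 5.54 lies in this interval. The authors' fold at the summit was 15, their FDR 0.3%, and the height recovered at the summit 18 tags. By tags the peak ranked 2548 of 9669.

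No other peak lay within 150 kb of IRF5, but the median between neighbouring summits of the list was 140 kb. The nearest other peak lay 183 kb from the gene body, with 16 tags and an FDR of 26.77%. With its own peak, 3 peaks lay within 500 kb of IRF5, fewer than at any other member, though IRF1 had 4. The mean of the complete list was 3.58 peaks per Mb of effective genome. Whether IRF5 lay farther from other peaks than is usual was not tested. The nearest filtered peak lay 2.01 Mb away. Counted on GRCh38.p14, starts 2, 3 and 4 of IRF5 lie 290, 2743 and 3341 bases past the first. On GRCh37 the summit of the IRF5 peak lay about 2.75 kb past the gene start, near the offset of the third start. Gene bodies are given to the nearest kb, so the summit was not placed within a window. The window of the third start holds GAAAGTG on the minus strand, beginning 36 bases before that start. The window of the fourth holds GAAANNGAA on the minus strand, beginning 4 bases before the start. The other 2 windows of IRF5 held no match to any motif searched.

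IRF7, the interferon-inducible factor that amplifies type I interferon production, had 1 peak, upstream of its body (chromosome 11, 612 to 616 kb). The peak ran from 628816 to 629868, with its summit 13.4 kb from the gene start. It held 35 tags, the most of the 4 IRF peaks, or 38 after scaling, where 7.37 were expected from the input. The input background here was 2.21 times the genome mean, the highest of the 4, and the ratio was the lowest, at 5.16 (3.6 to 7.19). The fold at the summit was 14.29 and the FDR 0.1%. By tags the peak ranked 1510 of 9669, and by tags over expected 6034.

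The IRF7 peak was the first of the complete list on chromosome 11, counted from the end of the short arm. The next lay 107 kb from the gene body, and the nearest filtered peak, with 81 tags, lay 1.01 Mb away. In gene order on GRCh38.p14, the neighbours upstream of IRF7 are CDHR5, a cadherin-related protein gene, SCT, which encodes the hormone secretin, and DRD4, a dopamine receptor gene. The peak lies on that side, and its position relative to these genes was not determined. The promoter table had entries for DRD4, with no motif match, but none for IRF7, CDHR5 or SCT.

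IRF9, the DNA-binding subunit of a complex that forms after type I interferon, was the only member with more than 1 peak. Both lay upstream of its body (chromosome 14, 24630 to 24636 kb), with summits 14.1 and 24.6 kb from the gene start. The nearer peak ran from 24615501 to 24616138 and held 18 tags, or 19 after scaling, where 2.55 were expected, a ratio of 7.45 (4.55 to 12.1), with a fold of 12.5 and an FDR of 0.55%. The farther peak ran from 24605230 to 24605963 and held 27 tags, or 29 after scaling, where 3.01 were expected, a ratio of 9.64 (6.44 to 14.2), with a fold of 19.51 and an FDR of 0.13%. It was the only IRF peak whose interval lay wholly above the list median of 5.54, with the tags expected from input taken as known. It ranked 934 of 9669 by tags over expected. The intervals of both IRF9 peaks overlap.

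The IRF9 summits lay 10.5 kb apart, and 16.1% of the complete list had another summit within that distance. A stronger peak lay beyond them, 46.1 kb upstream, from 24583241 to 24584636. It belonged to the filtered list, with 71 tags, but its input background was 3.16 times the genome mean and its ratio was 5.52 (4.33 to 6.99). Downstream of IRF9 no peak lay within 150 kb.

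Other genes lie between IRF9 and its peaks or beside them. In gene order on GRCh38.p14, the upstream neighbours of IRF9 are RNF31, which encodes the catalytic subunit of the linear ubiquitin ligase, then PSME2, EMC9 and PSME1. PSME1 and PSME2 encode the subunits of a proteasome activator that interferon gamma induces. On GRCh38.p14 the window of IRF9 begins at 24161015, that of PSME2 at 24146561 and that of PSME1 at 24135944. The PSME2 window thus lies about as far upstream of IRF9 as the nearer summit does on GRCh37. The PSME1 window lies about as far upstream as the farther summit. Peak positions were not converted and gene bodies are given to the nearest kb, so neither summit was placed within a window. The peaks cannot be assigned to IRF9 itself. The window of PSME2 held GAAANNGAA on its own strand, beginning 28 bases before the start, and that of PSME1 held it on the other strand, beginning at base 7 counted from 1 at the start. The first RNF31 window shares 236 bases with that of PSME2 and holds the same match. The second RNF31 window and that of EMC9 held no match to any motif searched. The window of IRF9 held no GAAAGTG and no GAAANNGAA. The shorter GAAAG was not searched for in any window.

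**Figure D2:**
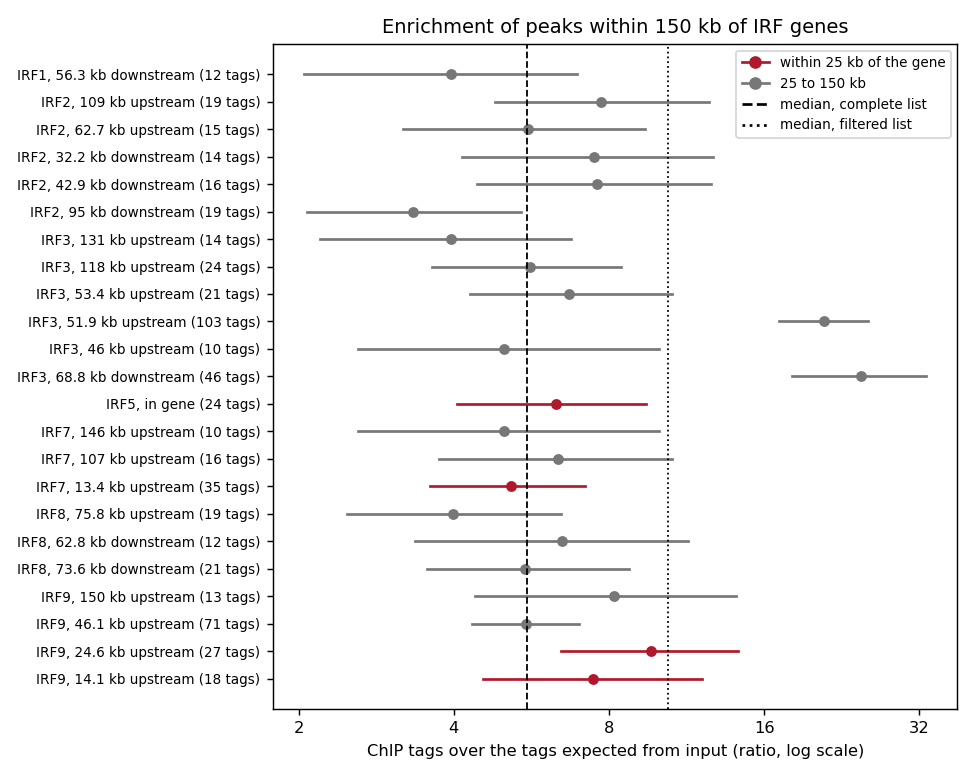
Scaled PRDM1 tags over the tags expected from input (ratio, log scale) for the 23 peaks within 150 kb of an IRF gene, with 95% intervals for counting error of the tags (exact Poisson). Red marks the 4 peaks within 25 kb. The dashed line is the median of the complete list, 5.54, and the dotted line that of the filtered list, 10.4. Of the red intervals only that of the 27-tag peak of IRF9 lies above the dashed line, and the 103-tag and 46-tag peaks near IRF3 lie farthest to the right.

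IRF1, IRF2, IRF3 and IRF8 had no peak. A gene without a peak is one where no region passed the caller's p cutoff at this depth. The weakest peaks listed anywhere held 9 tags, so weaker binding would not be seen. More tags were needed where the input background was higher. At 1.51 times the genome mean, the 12-tag peak nearest to IRF1 ranked 9588 of 9669 by score. The summits that flank these 4 genes lay 121 to 473 kb apart. The median between neighbouring summits of the list was 140 kb. The 2 are not comparable, because a gene without a peak must have a gap wider than its window, 56 to 137 kb here.

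IRF1, an activator of interferon-responsive and antigen presentation genes, had 4 peaks within 500 kb, the fewest among these 4 genes (chromosome 5, 131817 to 131826 kb). Its nearest peak lay 56.3 kb downstream with 12 tags, a ratio of 3.95 and an FDR of 48.55%. A filtered peak with 75 tags lay 382 kb downstream. The IRF1 promoter window on GRCh38.p14 held TTCNNNGAA, the element that STAT proteins bind, beginning 124 bases before the start. The IRF9 window held the same element 63 bases before its start. Neither held GAAAGTG. Capitals mark the element, each given with 10 flanking bases on either side.

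IRF1, chromosome 5, read along the gene: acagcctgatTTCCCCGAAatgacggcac
IRF9, chromosome 14, read along the gene: accacgtgatTTCTGGGAAaaggccctcc

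IRF2, first described as an antagonist of IRF1, has the longest body of the 7 genes, 87 kb (chromosome 4, 185309 to 185396 kb). It held no summit, but 2 peaks lay just outside the window on its downstream side. These were the nearest peaks to any window from outside. Their summits lay 32.2 and 42.9 kb from the body, with 14 and 16 tags, FDR values of 2.22% and 1.02%, and ratios of 7.47 and 7.58. The nearest filtered peak was 31 Mb away on the same chromosome. On the inner side of the limit, the farther IRF9 peak at 24.6 kb was the last to be counted.

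IRF3, the constitutively present factor that responds first to viral nucleic acid, had no peak within 25 kb (chromosome 19, 50163 to 50169 kb) but the strongest ones in its wider surroundings. A filtered peak from 50220227 to 50221568, 51.9 kb upstream, held 103 tags at a fold of 87.5. Its ratio was 20.9 (17.1 to 25.4), and it ranked 125 of 9669 by score and 60 by ratio. A second peak lay 68.8 kb downstream, from 50093824 to 50094456. It held 46 tags, 4 short of the filter, at a ratio of 24.7 (18.1 to 33), rank 32 of the list. Both intervals lie above those of all 4 IRF peaks. Around IRF3 16 peaks lay within 500 kb, 4 of them filtered, the most of any member. Chromosome 19 is rich in genes, and whether these peaks bear on IRF3 or on others was not tested.

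IRF8, which is needed for monocytes and dendritic cells and acts in germinal centre B cells, had no peak from 75.8 kb upstream to 62.8 kb downstream of its body (chromosome 16, 85933 to 85956 kb). The flanking peaks held 19 and 12 tags, with FDR values of 10.06% and 7.27%, so neither passed the 5% limit. The summits on either side lay 162 kb apart, and 45.8% of neighbouring summits in the list lay at least as far apart. That share is no measure of how unusual the gap is, because a gene without a peak must lie in a gap wider than its window, 73 kb here. Another peak, 73.6 kb downstream, held 21 tags at an FDR of 1.23%. The nearest filtered peak, with 114 tags, lay 0.844 Mb upstream. Both IRF8 windows in the promoter table held none of the motifs searched.

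**Figure D3:**
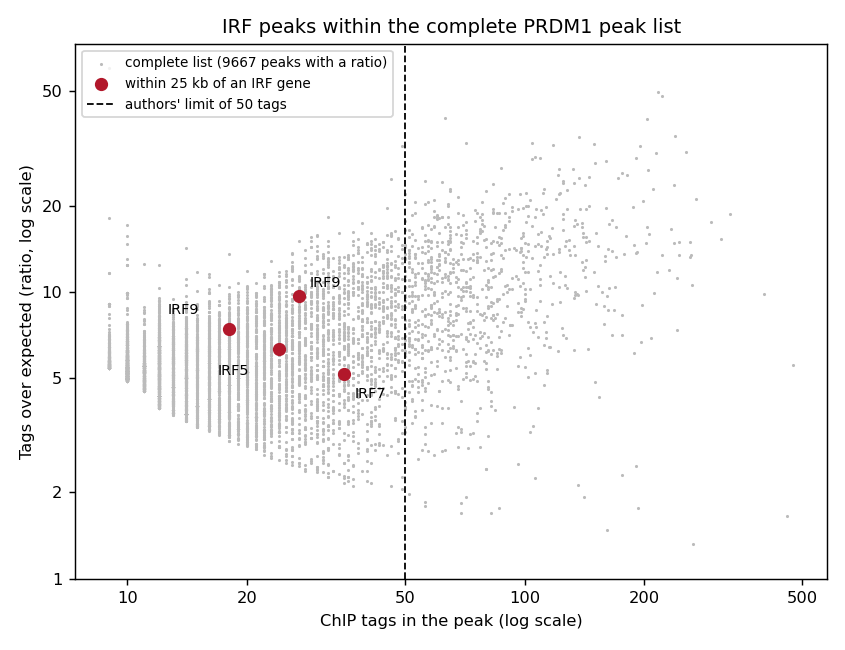
PRDM1 tags in each peak (log scale) against scaled tags over expected (ratio, log scale) for the 9667 peaks of the complete list that have a ratio, in grey. The 4 peaks at IRF5, IRF7 and IRF9 are red, and the dashed line is the authors' limit of 50 tags. All 4 lie to the left of the line, between 18 and 35 tags and between ratios of 5.16 and 9.64.

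Within the whole list the IRF peaks stood above the median in tags. All 4 held more than the median of 15 tags, and 3 of 4 had a ratio above the median of 5.54, with a member median of 6.87. The interquartile range of the list was 4.8 to 6.84. Filtered peaks had a median of 72 tags and a median ratio of 10.4. Peaks of 25 to 49 tags, the class of the IRF7 peak and the stronger IRF9 peak, numbered 1650, and 1536 of these passed an FDR of 5%. All 4 IRF summits lay in the central 50% of their peak, as did 96.3% of the list. Their widths ran from 638 to 1053 bp, around the list median of 724 bp. Their input background was 1.26 to 2.21 times the genome mean, against an interquartile range of 1 to 1.58.

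Motif matches were counted in the member promoters. The table covered 4 of the 7 genes, IRF1, IRF5, IRF8 and IRF9, with 8 windows of 300 bases. IRF5 gave 4 of these windows, and the windows of IRF8 overlap each other. Both strands were searched, and overlapping matches were allowed. GAAAGTG was found in 1 of the 8 windows, against 4.68% of all 35116 windows in the table. The longer core AAAGTGAAA, which overlaps it, was found in none, against 0.644%. GAAANNGAA was found in 1, against 8.11%, and TTCNNNGAA in 2, against 7.66%. With 8 windows from 4 genes, whether these shares differ from those of the table was not tested. Of the 5 windows of RNF31, PSME2, EMC9 and PSME1, 3 held GAAANNGAA, and 2 of these share their match. These are letters in a window and no measure of binding.

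**Figure D4:**
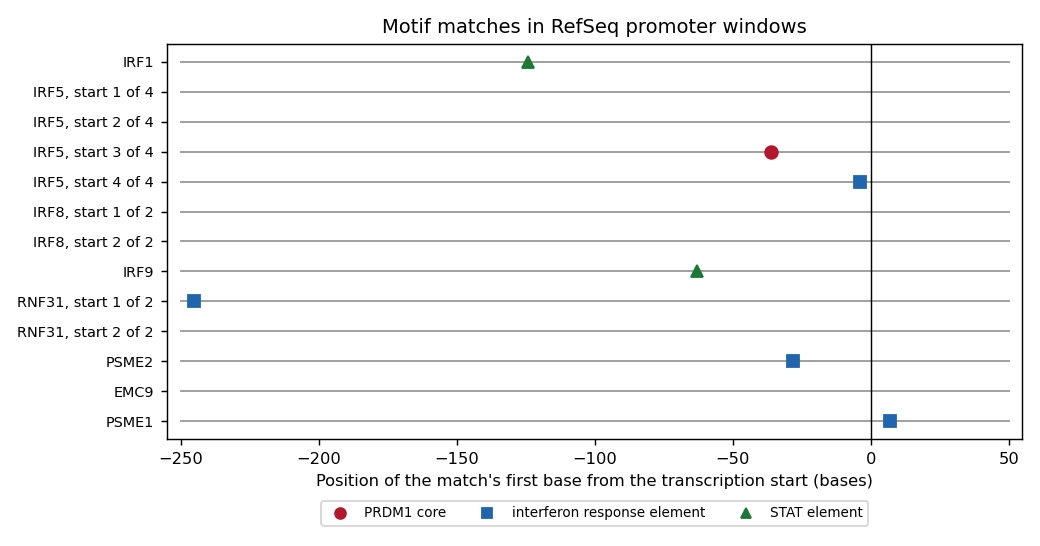
Matches to a PRDM1 core (GAAAGTG), an interferon response element (GAAANNGAA) and a STAT element (TTCNNNGAA) in RefSeq promoter windows, by the position in bases of the first base of the match from the transcription start. Each line is a window of 250 bases before to 50 after a start. Among the windows drawn, GAAAGTG appears in that of the third IRF5 start alone. The interferon element appears in that of the fourth IRF5 start and in those of PSME1, PSME2 and RNF31.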

How the data were processed

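PRDM1 chromatin immunoprecipitation was sequenced in U266 cells with an input library as control. The submitters' processing notes name CASAVA 1.8.2, Bowtie 0.12.7 and MACS 1.4. Peaks were called with MACS 1.4.1 at a p cutoff of 1e-05 on merged alignments, per the file headers. The authors kept 7854466 PRDM1 and 8556458 input tags, which is 2.91 and 3.17 tags per kb. Tag counts per peak are raw counts as deposited by the authors. Scores are deposited as −log10 of p multiplied by 10. The fold, a ratio of summit height to local background, and the FDR percent are also the authors' deposited values.

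The genome build is not given in the sources used here. By chromosome lengths entered from general knowledge, 0 peaks ran past the ends of GRCh37 chromosomes and 53 past those of GRCh38, so GRCh37 gene bodies, given to the nearest kb, were used. Strands of IRF2, IRF3 and IRF7 are from general knowledge. Expected tags were solved from each score, with tags scaled by 1.09, the input over PRDM1 ratio, and rounded down. This gave whole summit heights within 0.06 tags for 98.7% of 9667 peaks, where 12% would be by tolerance alone. The solving was tested on simulated data. Intervals are exact 95% Poisson and cover only the counting error of the PRDM1 tags or of the peaks. For the ratios, the tags expected from input were taken as known, so these intervals leave out the error of the input. The 7 genes, lists and motifs were chosen with earlier results of these data known. All members and their peaks are named. The neighbours of IRF7 and IRF9 were chosen after their peaks were seen. Python 3.11.15, scipy 1.17.1 and pandas 2.3.3 were used.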

Additional observations from a re-analysis of the deposited data

How the results depend on the processing

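The number of IRF genes with a peak was 3, with 4 peaks, all 4 within the FDR limit and 0 in the filtered list. It depended on the window by construction. At 10 kb there was 1 gene with 1 peak, 1 within the FDR limit. At 50 kb there were 5 genes, 8 peaks, 7 within the FDR limit and 1 filtered, the 71-tag peak of IRF9. At 100 kb, a setting added after seeing the data like those of 24 and 26 kb, there were 7 genes, 17 peaks, 11 within the FDR limit and 2 filtered. Gene bodies are known to the nearest kb and the farther IRF9 peak lay at 24.6 kb: at 24 kb 3 peaks remained at 3 genes, and at 26 kb there were 4. Taking any overlap of 1 bp changed nothing. In the filtered list 0 genes had a peak, and with a minimum of 25 tags 2 peaks passed, 1 at IRF7 and 1 at IRF9. A limit of 100 tags left 0, and so did an FDR of 1% with the limit of 50 tags kept. By FDR alone all 4 peaks were below 1%, at 0.1% to 0.55%. The ratios of the 4 peaks stayed within their intervals with scaled tags rounded to the nearest, at 5.16 to 9.64, and with unscaled tags, at 5.62 to 10.7.

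No paired analysis was possible because neither library had a replicate. The pathway gene list and the motif search in a shorter window needed a GRCh37 genome and annotation and were not run. Binding that gives fewer than 9 tags is below what the list holds, and more tags are needed where the input background is higher.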
